A study of Homo sapiens with 8 samples.

Results

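The proteasome genes were examined in U2OS cells, an established human osteosarcoma line, as the protein-coding genes of GENCODE release 29 whose names read PSM, a letter from A to G and a number. PSMB8 and PSMB9, which encode immunoproteasome subunits, were left out of the group. The rule gave 46 of the 58735 genes listed in each library, and 44 of the 46 passed the filter on low reads. The group was chosen by name and not by expression.

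The cells carried a lentiviral control shRNA (control or WT cells) or a lentiviral shRNA against WSB2 (KD cells), were kept as stable lines under puromycin, and received either no cytokine or 5 h of TNF-α. Each of the 4 groups had 2 libraries of total RNA. All cells therefore had gone through transduction and selection, the controls included. WSB2 is a substrate receptor of a cullin-RING ubiquitin ligase, which hands proteins to the proteasome, and the design asks how expression differs when it is depleted, with and without the cytokine. For these libraries the labels and methods give neither the hairpin nor the dose of TNF-α, and do not say that the replicates came from separate cultures, so the p-values measure the spread between libraries, which may be technical.

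The proteasome is the protease that degrades ubiquitin-tagged proteins. Its core particle is a barrel of outer alpha rings, which gate the entry, and inner beta rings, which hold the catalytic sites. A regulatory cap sits on the barrel. The base of the cap carries a ring of ATPases that unfold the substrate, and the lid carries the enzyme that removes the ubiquitin chain. Other activators, of the PSME genes, can take the place of the cap, and dedicated chaperones build the rings and the base. TNF-α signalling uses the complex, since it destroys IκBα, the inhibitor of NF-κB, and the transcription factor NFE2L1 is known to raise the proteasome genes together when proteasome activity falls.

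Values were FPKM, that is reads divided by the length of the gene and by a size of the library. The libraries held 15601098 to 18677023 reads, and the proteasome genes took 1006124 reads in all. WSB2 itself was at 27.7 and 28.0 FPKM in unstimulated control cells and at 8.38 and 8.52 in unstimulated KD cells. The stimulated libraries had 25.0 and 25.3 for control and 9.002 and 9.18 for KD. The bone matrix gene COL1A1 was at 172 to 269 FPKM, whereas COL1A2 stayed at or below 0.0934, and the blood and liver genes PTPRC, CD3E, ALB and HBB at or below 0.0770. Both unstimulated KD libraries stood apart from the other 6. Mitochondrial genes took 4.10% and 4.42% of their reads against 1.11% to 2.03%, the GC content weighted by reads was 49.9% and 49.4% against 52.5% to 53.2%, and 26225 and 26397 genes had a read against 22072 to 22957. The size by which the authors divided these libraries was 1.21 times the total reads in both, against 0.925 to 1.03 times in the other 6. The unstimulated control libraries differed from each other as well. Replicate 1 was above replicate 2 for 39 of the 44 proteasome genes, with a median log2 difference of 0.29, against a median of 0.07 between the unstimulated KD libraries.

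The share of all reads that came from proteasome genes was 0.869% and 0.763% in unstimulated control cells and 0.643% and 0.610% in unstimulated KD cells. In the stimulated libraries the share was 0.802% and 0.789% for control and 0.773% and 0.770% for KD cells. The share was thus lowest in both unstimulated KD libraries. These shares do not depend on how the libraries were scaled. Less RNA of a gene per cell and fewer cells that express it cannot be told apart in such bulk libraries.

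Levels differed widely between genes of the same part of the complex, per summed exon length as FPKM gives them. In the alpha ring, PSMA7 had the highest mean over the 8 libraries, 279 FPKM, and PSMA6 the lowest, 0.518 FPKM. In the beta ring the highest was PSMB3, a structural subunit, at 241 FPKM and the lowest PSMB10 at 6.27 FPKM. Among the base ATPases PSMC3 led at 215 FPKM and PSMC1 was lowest at 7.30 FPKM, and among the other base subunits PSMD2, a scaffold that binds ubiquitin-like proteins, was at 177 FPKM and PSMD1 at 28.0 FPKM. In the lid PSMD8 was highest at 111 FPKM and PSMD6 lowest at 8.19 FPKM. PSME1 led the activators at 67.2 FPKM and PSME4 was lowest at 10.5 FPKM. The chaperones were lower on the whole per summed exon length. Those of the base ran from PSMD9 at 1.59 to PSMD5 at 11.2 FPKM and those of the rings from PSMG4 at 1.52 to PSMG3 at 52.0 FPKM. Per length of the principal transcript, an alternative added after seeing the data, part of this order changed. PSME3 led the activators at 232 against 119 for PSME1, PSMB4 the beta ring at 389 and PSMD10 the base chaperones at 15.5. The lowest were then PSMA2 in the alpha ring at 1.88, PSMD12 in the lid at 16.5, with PSMD6 at 52.2, and PSMG1 among the ring chaperones at 8.07, with PSMG4 at 18.9. The other highest and lowest genes named here kept their place. The median of the ring chaperones was then 36.1, above the 30.2 of the alpha ring.

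**Figure D1:**
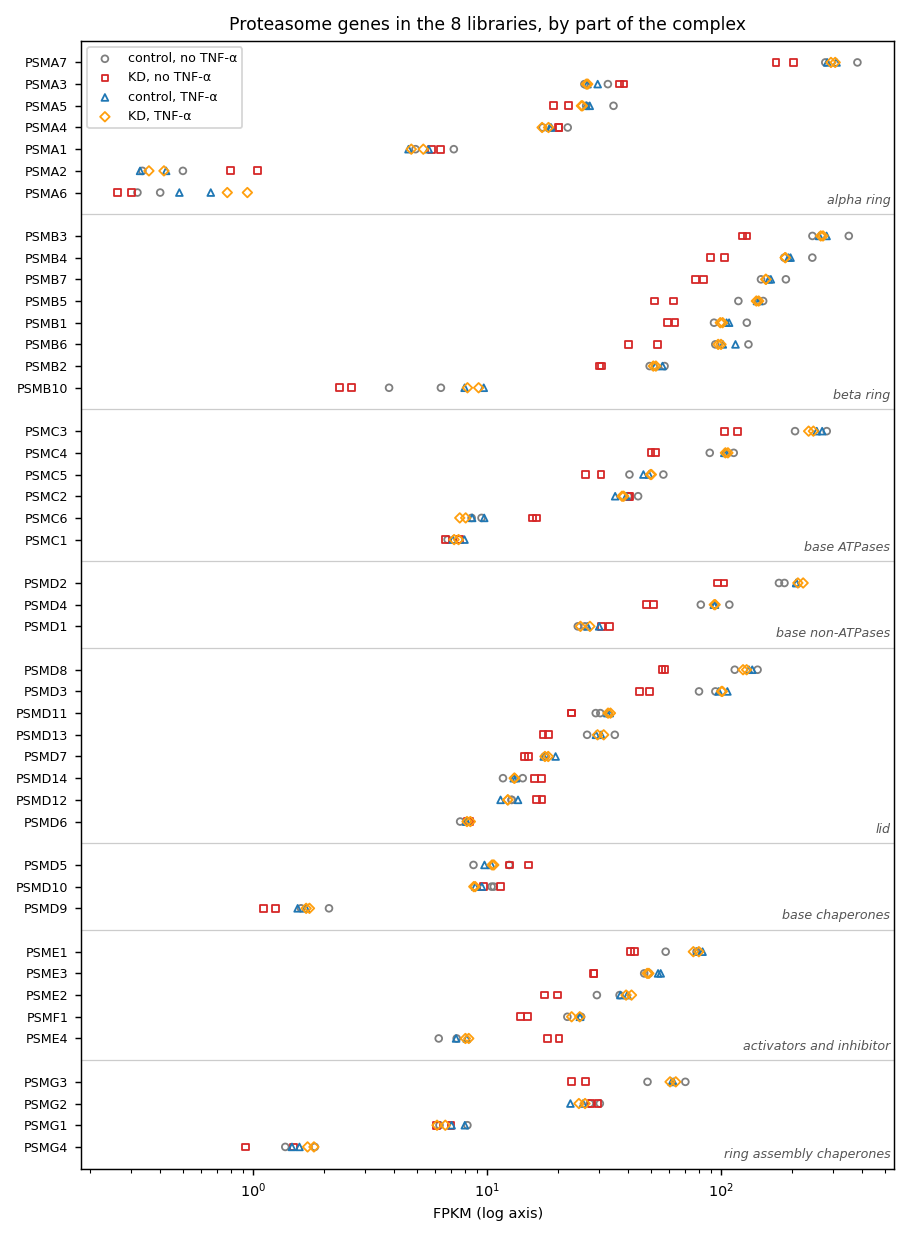
FPKM of the 44 proteasome genes with enough reads (horizontal log axis), 1 row per gene, grouped by part of the complex, with a symbol for each of the 8 libraries. Both unstimulated KD libraries (red squares) lie to the left of all other 6 in 27 genes (61.4%), among them the 8 genes of the beta ring. They lie to the right in 8 genes (18.2%), among them PSME4 and PSMC6. Over all genes tested these shares were 32.2% and 34.3%.

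The lowest values of the core belonged to genes that share exons with another annotated gene. Of 5 proteasome genes, 43.8% to 81.0% of the bases of the principal transcript also lie in exons of a second protein-coding gene on the same strand. For PSMA6 the share was 81.0%, for PSMA1 53.2%, for PSMA2 52.5%, for PSMB10 45.3% and for PSMD9 43.8%. The other 41 genes shared under 1% in this way. These 5 genes had 447, 2497, 394, 1525 and 1861 reads over the 8 libraries, and among the other genes with enough reads only PSMG4 (2128 reads) and PSMG1 (2347 reads) had fewer than PSMA1. The second genes, which carry clone-based names, were themselves listed with 6, 0, 3, 166 and 2 reads. Reads in shared exons can be lost or split in counting, so the levels of these 5 genes are uncertain, and the part of the shared exons in their low values was not tested. Over the 14 constitutive core genes the highest level was 539 times the lowest. With the 3 alpha genes that share exons left out, the remaining 11 ran from PSMA4 at 19.1 FPKM to PSMA7, a ratio of 14.6. Per length of the principal transcript in place of all exons the ratio of these 11 genes was 16.2. PSMC1, the lowest ATPase, shares 82.1% of its principal transcript with NRDE2 on the opposite strand, and the strand setting of the counting is not given in the sources used here. Pseudogenes named after proteasome genes took few reads, 623 over 30 such pseudogenes.

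**Figure D2:**
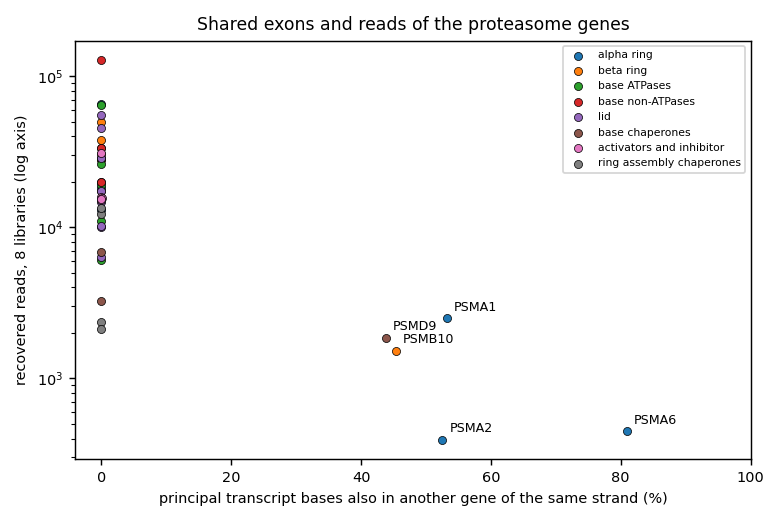
Recovered reads over the 8 libraries (vertical log axis) of the 44 proteasome genes against the percentage of their principal transcript that lies in exons of another gene on the same strand. The 5 named genes, at 43.8% to 81.0%, had 394 to 2497 reads, and the other 39 genes, at under 1%, had 2128 reads or more.

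PSMA8, the testis form of PSMA7, and PSMB11, the thymus form of PSMB5, had 0 reads among the 133682980 reads of the 8 libraries, which allows up to 3 reads or 0.0224 RPM of the summed libraries for each (counting error only).

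The promoters were read from RefSeq (GRCh38.p14), as the 250 bases before and the 50 bases after each start. The table held 48 such windows for 40 of the 46 genes. The genes without a window were PSMA7, PSMB1, PSMB6, PSMB7, PSMD4 and PSMG3, all of them called lower in unstimulated KD cells. The letters TGACNNNGC, the core of the antioxidant response element that NFE2L1 binds, were searched on both strands. They stood in 14 of the 48 windows (29.2%), against 13.3% of all 35116 windows. The CCAAT box, bound by NF-Y, stood in 19 of the 48 (39.6%) against 34.6% of all windows, and the κB consensus in 2 of the 48 (4.17%) against 7.73%. TGACNNNGC stood in 7 of the 24 windows of genes that were lower in unstimulated KD cells, in 3 of the 7 windows of genes that were higher and in 4 of the 15 windows of genes that were not called, with the 2 undetected genes left out. Windows that hold TGACNNNGC are shown for a pair of genes of each direction, as called between unstimulated KD and control cells below. PSMD12, marked there as a gene that rose, was called lower with a correction for GC content and length, at -0.25. A relation of the letters to the direction was not tested. Capitals mark TGACNNNGC and CCAAT matches on either strand.
PSMB3, fell, chr17:38752491-38752790, plus strand: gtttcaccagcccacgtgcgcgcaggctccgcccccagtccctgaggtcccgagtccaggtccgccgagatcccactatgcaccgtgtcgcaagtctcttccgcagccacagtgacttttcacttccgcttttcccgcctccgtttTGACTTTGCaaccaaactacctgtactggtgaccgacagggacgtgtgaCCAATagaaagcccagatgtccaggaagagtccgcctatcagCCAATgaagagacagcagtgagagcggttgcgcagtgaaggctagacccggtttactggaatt
PSMD3, fell, chr17:39980557-39980856, plus strand: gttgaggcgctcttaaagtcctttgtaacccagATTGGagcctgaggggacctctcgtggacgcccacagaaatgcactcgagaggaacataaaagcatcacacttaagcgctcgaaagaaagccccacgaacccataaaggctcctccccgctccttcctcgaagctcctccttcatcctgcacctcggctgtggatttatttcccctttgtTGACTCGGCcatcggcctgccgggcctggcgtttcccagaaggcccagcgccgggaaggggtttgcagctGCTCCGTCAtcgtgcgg
PSME4, rose, chr2:53970944-53971243, minus strand: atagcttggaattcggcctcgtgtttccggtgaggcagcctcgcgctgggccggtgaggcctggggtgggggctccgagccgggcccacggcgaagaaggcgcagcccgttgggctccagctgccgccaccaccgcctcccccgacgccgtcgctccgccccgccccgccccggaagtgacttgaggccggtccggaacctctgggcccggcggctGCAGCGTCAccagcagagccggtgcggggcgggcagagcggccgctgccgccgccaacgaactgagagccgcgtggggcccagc
PSMD12, rose, chr17:67366528-67366827, minus strand: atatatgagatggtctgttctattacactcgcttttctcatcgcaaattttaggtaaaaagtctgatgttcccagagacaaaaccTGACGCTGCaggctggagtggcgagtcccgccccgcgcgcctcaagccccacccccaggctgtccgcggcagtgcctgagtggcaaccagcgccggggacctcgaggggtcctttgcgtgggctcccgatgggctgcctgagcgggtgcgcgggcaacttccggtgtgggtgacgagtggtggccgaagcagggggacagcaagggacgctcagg
Counted from the start, with the base before it as -1, the TGACNNNGC match begins at -104 in PSMB3, at -37 and 34 in PSMD3, at -34 in PSME4 and at -165 in PSMD12. PSMB3 also has CCAAT boxes at -55 and -13 and PSMD3 one at -217. A match is a string of letters and not a shown binding site.

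To see how depletion of WSB2 alone went with the proteasome genes, unstimulated KD cells were compared with unstimulated control cells. Of the 44 genes, 26 were lower in KD cells, 7 were higher and 11 did not pass the test (limma on log2(FPKM + 1), adjusted p under 0.05 over all 16528 genes tested). The median log2 fold change was -0.60. Over all genes tested 30.2% were lower and 29.8% higher, with a median of -0.00104, so 59.1% of the proteasome genes stood on the lower side and 15.9% on the higher side. With the P-value under 0.05 and the fold beyond 1 on the log2 scale that the study's methods set, 8 were lower and 1 higher, against 5.10% and 6.84% of all genes. The 8 became 16 with upper-quartile factors, 3 with a correction for GC content and length and 0 scaled to total reads. Over all genes tested the lower genes at these thresholds went from 843 to 1808, 215 and 207 in the same order. The median log2 fold change of the proteasome genes was -0.43 without unstimulated control replicate 1 and -0.71 without replicate 2. The 2 directions followed the parts of the complex unevenly. The beta ring was lower throughout, and the genes that rose were spread over the alpha ring, the ATPases, the lid, the base and the activators.

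The beta ring fell in 8 of 8 genes with enough reads, with a median log2 fold change of -1.09. The largest fall of all 44 genes was that of PSMB6 (chr17:4796144-4798503), the caspase-like catalytic subunit. PSMB6 was at 131 and 94.3 FPKM in unstimulated control cells and at 53.2 and 40.1 in unstimulated KD cells, and its log2 fold change was -1.25 ± 0.18 (SE, adjusted p = 0.000701). PSMB3 (chr17:38752736-38764231), whose promoter is shown above, was at 351 and 245 FPKM in control and 129 and 123 in KD cells, a log2 fold change of -1.21 ± 0.16 (SE, adjusted p = 0.000507). The chymotrypsin-like subunit PSMB5, the target of proteasome inhibitors used in myeloma, went from 151 and 118 FPKM to 62.7 and 52.0, -1.21 ± 0.13 (SE, adjusted p = 0.000282). In each of the 3 genes the KD libraries lay below both control libraries and below all 4 libraries with TNF-α, as in 32.2% of all genes. PSMB7, the trypsin-like subunit, was at 189 and 148 FPKM in control and 84.0 and 77.8 in KD cells, -1.04 ± 0.12 (SE, adjusted p = 0.000331). The structural subunits PSMB4, PSMB1 and PSMB2 changed by -1.14, -0.83 and -0.79 on the log2 scale. The smallest change of the ring was that of PSMB10, the inducible counterpart of PSMB7, at -0.77 ± 0.19 (SE, adjusted p = 0.0097).

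The alpha ring was divided. PSMA7, its most abundant gene, fell from 382 and 278 FPKM to 204 and 171, a log2 fold change of -0.80 ± 0.16 (SE, adjusted p = 0.00375), and PSMA5 fell by 0.53 on the log2 scale. PSMA3 rose, from 32.8 and 26.0 FPKM in control to 38.4 and 36.7 in KD cells, 0.35 ± 0.11 (SE, adjusted p = 0.0267). PSMA2 rose from 0.50 and 0.336 to 1.04 and 0.796 FPKM, 0.44 ± 0.09 (SE, adjusted p = 0.00478), at a level where log2(FPKM + 1) understates the fold, and with shared exons as described above. PSMA1, PSMA4 and PSMA6 did not pass the test, with log2 fold changes of 0.02, 0.05 and -0.08. The median of the ring was 0.02, against -1.09 in the beta ring. With the correction for GC content and length no alpha gene was higher and 4 were lower, PSMA5 at -1.19, PSMA6 at -0.76, PSMA4 at -0.42 and PSMA7 at -0.35, with a median of -0.35. Scaled to total reads 3 were higher and 1 lower, with a median of 0.26.

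In the base, 3 of the 6 ATPases fell. PSMC3 went from 282 and 207 FPKM in control to 117 and 103 in KD cells, -1.13 ± 0.15 (SE, adjusted p = 0.000534), and PSMC4 and PSMC5 changed by -0.96 and -0.73. PSMC6, which belongs to the same ring, rose from 9.45 and 8.57 to 15.6 and 16.3 FPKM, a log2 fold change of 0.76 ± 0.09 (SE, adjusted p = 0.000373). PSMC1 and PSMC2 were not called, at -0.01 and -0.05. Of the non-ATPase subunits of the base, PSMD2 fell from 186 and 176 to 103 and 96.5 FPKM, -0.86 ± 0.09 (SE, adjusted p = 0.000221), the ubiquitin receptor PSMD4 changed by -0.91, and the scaffold PSMD1 rose from 24.4 and 26.1 to 30.8 and 33.3 FPKM, 0.33 ± 0.09 (SE, adjusted p = 0.015).

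In the lid 5 of 8 genes fell and 2 rose. PSMD8 was at 143 and 114 FPKM in control and at 57.5 and 55.8 in KD cells, -1.16 ± 0.11 (SE, adjusted p = 0.000195), and PSMD3, whose promoter is shown above, changed by -0.88. PSMD13, PSMD11 and PSMD7 changed by -0.75, -0.36 and -0.25. The genes that rose were PSMD14, the deubiquitinating enzyme of the lid, by 0.33, and PSMD12, by 0.37. PSMD6, the lowest gene of the lid, was at 8.28 and 7.66 FPKM in control and 8.37 and 8.23 in KD cells and was not called.

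Among the activators, the pair PSME1 and PSME2 encodes the interferon-inducible ring that opens the core without ATP. PSME1 was at 78.4 and 57.9 FPKM in control and 40.9 and 42.7 in KD cells, -0.68 ± 0.13 (SE, adjusted p = 0.00316), and PSME2 at 36.8 and 29.4 and 19.9 and 17.6, -0.78 ± 0.12 (SE, adjusted p = 0.000834). The nuclear activator PSME3 was at 46.8 and 49.1 and 28.5 and 28.6 FPKM, -0.73 ± 0.07 (SE, adjusted p = 0.000185). PSMF1, an inhibitor of the core in the test tube, was at 25.2 and 22.0 and 14.8 and 13.9 FPKM, -0.68 ± 0.09 (SE, adjusted p = 0.000507). All of these fell. PSME4 (chr2:53864067-53970840), the large single-chain activator known from DNA repair and spermatogenesis, moved the other way, from 6.20 and 7.40 FPKM in control to 18.1 and 20.2 in KD cells, 1.37 ± 0.11 (SE, adjusted p = 0.000137), the largest rise of the 44 genes. PSME3 was at 755% and 663% of the level of PSME4 per length in unstimulated control cells and at 158% and 141% in unstimulated KD cells. Per principal transcript these values were 2703% and 2374% in control and 565% and 505% in KD cells, so the size of the ratio depends on the length used.

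Of the 7 chaperone genes 2 fell and the other 5 were not called. PSMG3, which with PSMG4 guides the alpha ring, went from 70.2 and 48.4 FPKM in control to 26.3 and 22.9 in KD cells, -1.21 ± 0.16 (SE, adjusted p = 0.000506), the largest fall outside the beta ring. PSMG4 was at 1.83 and 1.37 and 1.49 and 0.925 FPKM and was not called. PSMG1 and PSMG2, the other alpha-ring pair, had log2 fold changes of -0.12 and -0.00355. Of the base chaperones PSMD9 fell from 2.11 and 1.6 to 1.10 and 1.24 FPKM, -0.39 ± 0.12 (SE, adjusted p = 0.02), again a gene with shared exons. PSMD5 was at 8.73 and 12.4 and 12.5 and 14.95 FPKM and missed the threshold, 0.36 ± 0.15 (SE, adjusted p = 0.076), and PSMD10 had -0.01.

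**Figure D3:**
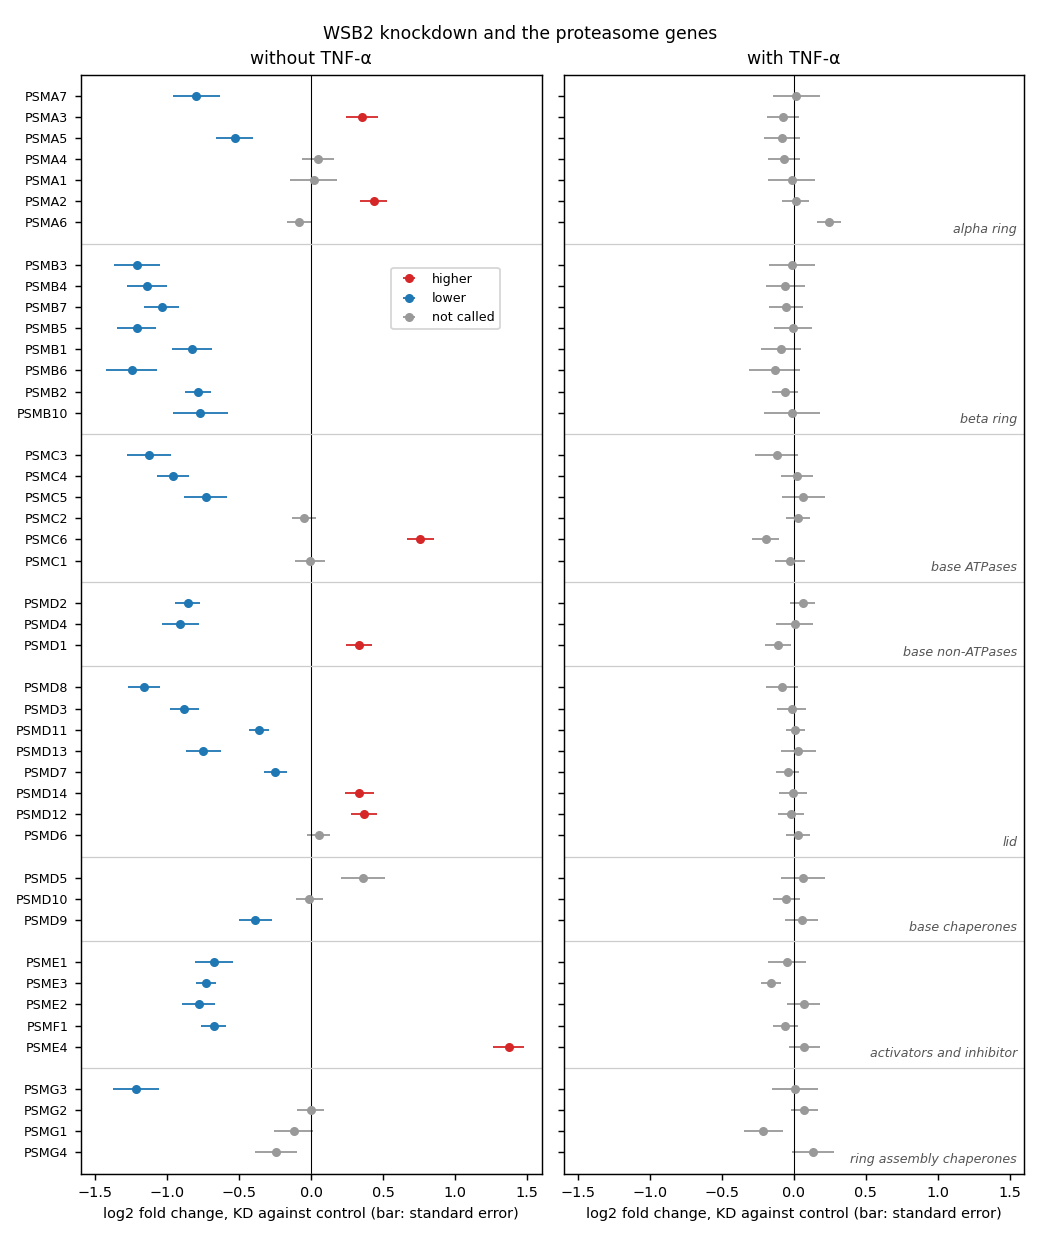
log2 fold change of KD against control cells (horizontal axis, bars 1 standard error) for the 44 proteasome genes by part of the complex, without TNF-α (left) and with TNF-α (right). Without TNF-α 26 genes were lower (blue) and 7 higher (red), against 30.2% and 29.8% of all genes. The changes ran from -1.25 for PSMB6 to 1.37 for PSME4. With TNF-α all 44 lay between -0.21 and 0.24 and none was called.

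The direction of a proteasome gene in unstimulated KD cells went with its base composition and with its length. The 7 genes that rose had a median GC content of 38.8% in the longest transcript, the 26 that fell 51.6% and the 11 that were not called 42.1%. Across the 44 genes Spearman's rho between GC content and log2 fold change was -0.75, and over all genes tested it was -0.68. Between summed exon length and log2 fold change the rho of the 44 genes was 0.65. The median length was 5364 bases for the 7 genes that rose and 2883.5 bases for the 26 that fell. Genes are not independent points here, since they share the libraries and their composition. With a correction of each library for GC content and length the rho of the 44 genes was -0.13 for GC content and 0.28 for length. With that correction 32 genes were lower and 2 higher, PSME4 at 0.76 and PSMG2 at 0.29, against 28.2% and 24.0% of all genes, and the median was -0.53. The beta ring was then lower in 7 of 8 genes, with PSMB10 at -0.18 not called, and the lid in 8 of 8. PSMC6 was at 0.08 and PSMD1 at 0.11, neither called, and PSMA2, PSMA3, PSMD12 and PSMD14 turned to -0.05, -0.19, -0.25 and -0.48. The fall of most of the beta ring and the rise of PSME4 were thus found with and without the correction. The other 6 genes were called as higher without it and not with it, and of these PSMD12 and PSMD14 were called lower with it.

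**Figure D4:**
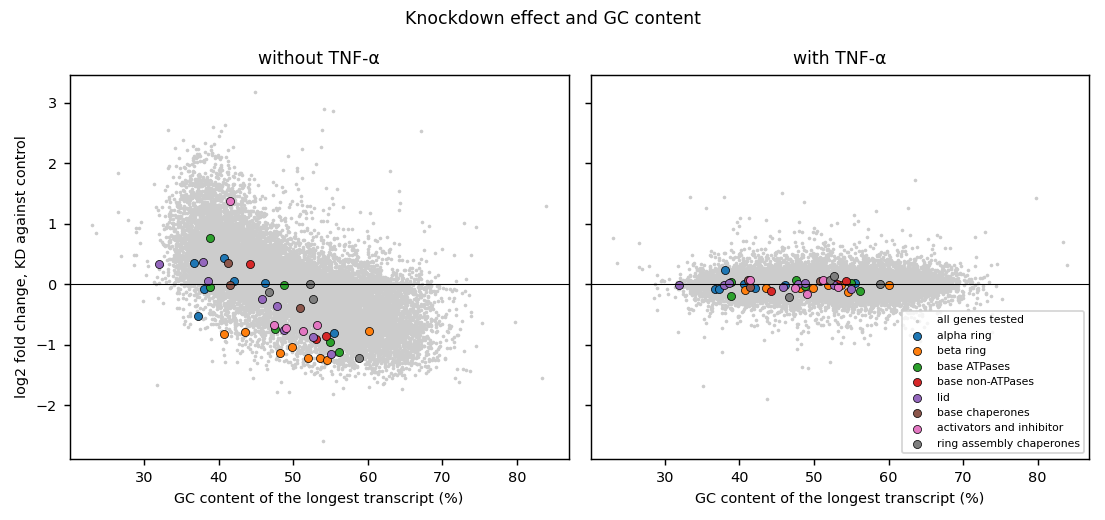
log2 fold change of KD against control cells against the GC content of the longest transcript (in percent) without TNF-α (left) and with TNF-α (right), with all genes tested in grey and the 44 proteasome genes in colour by part of the complex. Without TNF-α the proteasome genes follow the slope of all genes (rho of -0.75 and -0.68), and with TNF-α there is little slope (rho of 0.08 and 0.03).

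The counts also moved with the scaling. Scaled to total reads, which raised the median log2 fold change of all genes to 0.13, 22 proteasome genes were lower and 12 higher, against 20.9% and 39.4% of all genes, with a median of -0.33. With upper-quartile factors, which lowered the median of all genes to -0.12, 27 were lower and 3 higher, against 38.0% and 23.0% of all genes, with a median of -0.84. The beta ring stayed 8 of 8 lower under both. PSMD7 alone among the 26 lower genes turned, to 0.02 when scaled to total reads. The median log2 fold change of the proteasome genes was -0.53 without unstimulated KD replicate 2 and -0.64 without replicate 1, against -0.60 with both. The difference between KD and control cells without TNF-α and the difference in library composition cannot be told apart, since both unstimulated KD libraries carry it and no other library does.

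KD and control cells were compared in the same way after TNF-α. None of the 44 genes was called between KD and control cells, against 0.0605% of all genes called higher and 0.0545% lower. By the thresholds of the methods again none was called, against 0.0726% higher and 0.0363% lower. The count was 0 with a voom fit of the recovered reads too, against 34 higher and 18 lower of all 16528 genes tested. At an unadjusted p under 0.05 the main fit had 1 proteasome gene, against 1348 of all genes. The 1 was PSMA6, at 0.483 and 0.658 FPKM in control and 0.774 and 0.943 in KD cells. PSMA6 had the largest absolute change, 0.24 ± 0.08 (SE, limma adjusted p = 0.48). All 44 changes lay between -0.21 and 0.24, and the 95% intervals of 42 genes lay within 0.5 of 0 on the log2 scale. The 95% intervals of all 44 reached from -0.55 to 0.47, a range that leaves out the changes of PSMB6 and PSME4 measured without TNF-α. For the genes named above, PSMB6 was at 102 and 115 FPKM in control and 99.8 and 97.0 in KD cells, and PSME4 at 8.17 and 7.36 and 8.06 and 8.33. PSMG3 was at 61.5 and 62.5 and 63.9 and 60.4 FPKM.

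**Figure D5:**
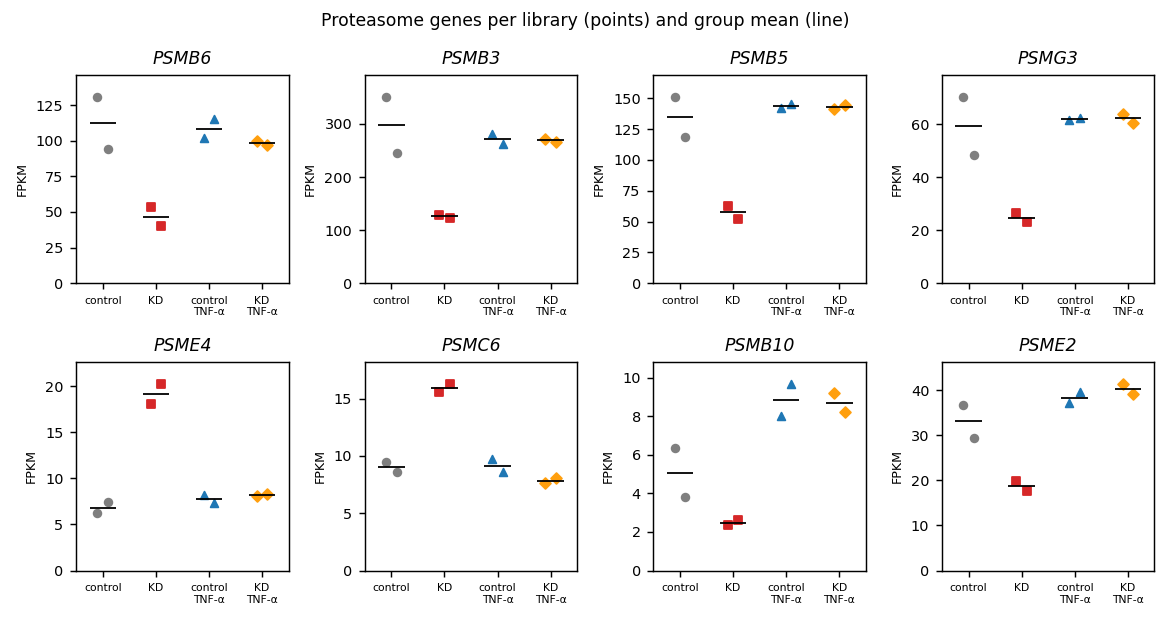
FPKM (linear axis from 0) of 8 proteasome genes in each library (points) with the group mean (line) for control and KD cells without and with TNF-α. PSMB6, PSMB3, PSMB5, PSMG3, PSMB10 and PSME2 are lowest and PSME4 and PSMC6 highest in both unstimulated KD libraries, and the KD libraries with TNF-α lie close to the control libraries with TNF-α.

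The response to TNF-α was measured first in control cells. No proteasome gene was called, against 3.10% of all genes called higher and 1.14% lower, and the median log2 fold change was 0.02. At an unadjusted p under 0.05 there were 5 of the 44 genes, against 2899 of all 16528 genes tested. The largest change was that of PSMB10 (chr16:67934502-67937087), whose subunit replaces PSMB7 in the immunoproteasome. PSMB10 was at 6.34 and 3.80 FPKM in unstimulated and 8.004 and 9.66 in stimulated control cells, so the groups did not overlap, and its log2 fold change was 0.72 ± 0.19 (SE, adjusted p = 0.0949). Its call depended on the fit. PSMB10 passed with voom on the recovered reads (0.86, adjusted p = 0.0411), with the correction for GC content and length (0.70, adjusted p = 0.0354) and without unstimulated control replicate 1 (1.03, adjusted p = 0.0102), and its adjusted p was 0.0792 to 0.410 under the other 15 alternatives. Without unstimulated control replicate 1 PSME1 also passed, at 0.47, and without replicate 2 PSMB3 and PSMB1 passed as lower, at -0.37 and -0.27. PSME1 was at 78.5 and 83.2 FPKM in stimulated and 78.4 and 57.9 in unstimulated control cells. PSME2 was at 37.1 and 39.7 FPKM in stimulated and 36.8 and 29.4 in unstimulated control cells. The lower stimulated value thus hardly exceeded the higher unstimulated value in either gene, and neither was called with all 8 libraries. As a share of PSMB7 per length, PSMB10 was at 3.35% and 2.57% in unstimulated and 4.91% and 6.05% in stimulated control cells.

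In KD cells the same stimulus went with 26 higher and 7 lower genes of 44, against 31.1% and 31.4% of all genes, with a median log2 fold change of 0.61. This comparison shares both unstimulated KD libraries with the comparison of KD and control cells above, so the 2 are not independent. The largest rise was that of PSMB10, from 2.34 and 2.63 FPKM to 9.18 and 8.23, 1.48 ± 0.19 (SE, adjusted p = 0.000389). PSMB5 went from 62.7 and 52.0 to 141 and 145 FPKM, 1.31 ± 0.13 (SE, adjusted p = 0.000146), and PSMG3 from 26.3 and 22.9 to 63.9 and 60.4, 1.30 ± 0.16 (SE, adjusted p = 0.000294). The largest falls were those of PSME4, from 18.1 and 20.2 to 8.06 and 8.33 FPKM, -1.13 ± 0.11 (SE, adjusted p = 0.000111), of PSMC6, -0.93 ± 0.09 (SE, adjusted p = 0.000125), and of PSMA3, -0.48 ± 0.11 (SE, adjusted p = 0.0068). None of these genes was called between KD and control cells with TNF-α. The beta ring rose in 8 of 8 genes with enough reads. Scaled to total reads 22 genes were higher and 16 lower, against 3309 and 7240 of all 16528 genes tested. With upper-quartile factors 28 were higher and 3 lower, against 6128 and 4075 of all genes. The correction for GC content and length gave 28 higher and 3 lower, against 4802 and 4597 of 16520 genes. In the main fit 5141 and 5187 of all genes were called. With the correction PSMA3 turned to 0.12 and was not called.

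Whether the effect of the knockdown differed with and without TNF-α was tested as an interaction. The effect was higher with TNF-α for 22 genes and lower for 5, against 23.8% and 22.3% of all genes, with a median difference of 0.51 on the log2 scale. The largest positive differences were those of PSMG3, 1.22 ± 0.23 (SE, adjusted p = 0.00447), PSMB5, 1.21 ± 0.19 (SE, adjusted p = 0.00273), and PSMB3, 1.199 ± 0.23 (SE, adjusted p = 0.00474). The largest negative ones were those of PSME4, -1.30 ± 0.15 (SE, adjusted p = 0.00143), PSMC6, -0.96 ± 0.13 (SE, adjusted p = 0.00193), and PSMD1, -0.44 ± 0.13 (SE, adjusted p = 0.0256). Scaled to total reads the counts were 16 and 8, against 14.8% and 30.0% of all genes. With upper-quartile factors they were 27 and 2, against 31.1% and 16.8%. With the correction for GC content and length 24 were higher and 1 lower, against 19.9% and 15.7%. The 1 was PSME4 at -0.69, and PSMC6 at -0.27 and PSMD1 at -0.23 were not called. Both unstimulated KD libraries lay below all other 6 for 27 of the 44 genes (61.4%, against 32.2% of all genes) and above all other 6 for 8 (18.2%, against 34.3%). The genes above were PSMA2, PSMA3, PSMC6, PSMD1, PSMD12, PSMD14, PSMD5 and PSME4.

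Genes whose products work with the proteasome were followed in 3 lists. Of 11 other components and factors, 4 were higher and 2 lower in unstimulated KD cells, against 29.8% and 30.2% of all genes. With the correction for GC content and length 1 was higher and 6 were lower, against 24.0% and 28.2% of all genes. Scaled to total reads 5 were higher and 1 lower, against 39.4% and 20.9%. ADRM1, a ubiquitin receptor of the proteasome, was at 193 and 141 FPKM in control and 76.6 and 61.4 in KD cells. Its log2 fold change was -1.26 ± 0.17 (SE, limma adjusted p = 0.000539), and PAAF1 changed by -0.36. ZFAND5, which stimulates the proteasome, rose by 0.70 and ECPAS, an adaptor of the assembled complex, by 0.70. POMP, the chaperone that closes the beta rings, was at 60.8 and 44.1 and 46.5 and 41.0 FPKM and was not called, -0.24 ± 0.14 (SE, adjusted p = 0.181), but was called lower with the correction, at -0.82. With TNF-α none of the 11 was called between KD and control cells.

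The regulators of proteasome genes moved in both directions. Of the 7, 3 were higher and 4 lower in unstimulated KD cells, against the same 29.8% and 30.2% of all genes. With the correction for GC content and length 2 were higher and 1 was lower, against 24.0% and 28.2% of all genes. The 2 were NFE2L2 and DDI2. The 1 was NGLY1, the glycanase that processes NFE2L1, at -0.36 in place of 0.44. NFE2L1, MAFF, MAFK and MAFG were then not called. NFE2L1 was at 66.2 and 71.2 FPKM in control and 54.1 and 52.1 in KD cells, -0.36 ± 0.08 (SE, adjusted p = 0.005). NFE2L2, its relative in the oxidative stress response, rose from 3.75 and 4.84 to 10.1 and 12.1 FPKM, 1.19 ± 0.13 (SE, adjusted p = 0.000255), and DDI2, the protease that activates NFE2L1, from 1.09 and 1.88 to 4.11 and 4.76, 1.14 ± 0.16 (SE, adjusted p = 0.000633). The partner proteins MAFK and MAFG changed by -0.73 and -0.57. TNF-α raised MAFF in control cells, from 5.74 and 4.95 to 17.4 and 18.4 FPKM, 1.58 ± 0.12 (SE, adjusted p = 0.000435), the only gene of the 3 lists called there, and in KD cells to 27.6 and 28.2 FPKM, 2.64 ± 0.12 (SE, adjusted p = 1.42e-05). Between KD and control cells with TNF-α none of the 7 was called, and with the correction MAFF was, at 0.61 with a limma adjusted p of 0.0499.

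Among the ubiquitin genes and shuttle factors, DDI1 had no read. Of the other 11, 8 were lower and 2 higher in unstimulated KD cells, against 30.2% and 29.8% of all genes. The polyubiquitin gene UBB was at 246 and 189 FPKM in control and 104 and 89.0 in KD cells, -1.16 ± 0.14 (SE, adjusted p = 0.000408). The shuttle factors RAD23B and UBQLN1 rose by 0.49 and 0.47. With the correction for GC content and length UBQLN1 turned to -0.26 and RAD23B was not called as higher. The list then had 7 lower and 0 higher genes, against 28.2% and 24.0% of all genes. None of the 11 was called between KD and control cells with TNF-α. In the interaction 1 component was higher and 3 lower, 4 regulators were higher and 3 lower, and 7 ubiquitin genes were higher and 1 lower, against 23.8% and 22.3% of all genes. With the correction these counts were 4 and 1, 2 and 2, and 6 and 0, against 19.9% and 15.7% of all genes.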

How the data were processed

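RNA-seq of U2OS cells was analysed in 4 groups of 2 libraries, grouped by the labels. Per the submitters' processing notes the tools were CASAVA 1.8, fastp, HISAT2 2.0.5, featureCounts 1.5.0-p3 and DESeq2 1.20.0, and the strand setting of the counting is not given in the sources used here. The authors deposited FPKM values for 58735 genes. Multiplied by the gene's length and divided by the smallest step found in the library, 100% of values came out whole (tolerance 0.01), so reads were recovered. The library size used by the authors equals the median-of-ratios factor times the geometric mean of the totals. Positions of all genes match GENCODE release 29 on GRCh38, and all 8 columns of values were used (0 left out).

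The test ran on log2(FPKM + 1) with limma 3.58.1 in R 4.3.3, with 1 mean per group over all 8 libraries, 4 residual degrees of freedom and a variance trend. Fold changes are on this scale, which understates the change of low genes. The filter on low values asked for 10 reads (at median depth) in 2 or more libraries and 15 reads over all, and 16528 genes passed. A call needed an adjusted p under 0.05 by the method of Benjamini and Hochberg over these genes. The methods of the study name edgeR, which needs counts and was not run.

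The genes, the lists and the tests were chosen with earlier results of these data known. Named genes were, per comparison, the 3 largest rises and 3 largest falls among called genes, or the largest absolute change where none was called, the highest and lowest gene of each part, the tissue forms beside their counterparts, the activators and the inhibitor, and of each pathway list the 2 largest rises and falls, with NFE2L1 and POMP. Other genes are named as members of their part. The values of 1 gene that this rule names in a pathway list are not reported here.

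Alternatives were a pseudocount of 0.1, total-read and upper-quartile scaling, no filter, a mean of at least 1 FPKM, only the 4 libraries compared, the replicate number as a block, voom on the recovered reads, a correction of each library for GC content and length (splines with 5 degrees of freedom), and leaving out each library. Leaving out both unstimulated KD libraries and levels per principal transcript were added after the data were seen. Tested on simulated data with a 2-fold change of 200 genes, limma recovered 78% among 15728 genes when the unstimulated KD effect was simulated, 81% among 15757 for the KD effect in stimulated cells, 86% among 15771 for the cytokine in control cells, 86% among 15761 for it in KD cells and 56% among 15763 for the interaction. False calls numbered 3, 16, 18, 9 and 3 in the same order. The simulated counts had 1 fixed dispersion and no difference in composition or GC content between groups, so the recovered shares do not give the power in these libraries. Python 3.11.15 with numpy 2.4.6, pandas 2.3.3, scipy 1.17.1 and matplotlib 3.10.9 was used for the other steps.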

Additional observations from a re-analysis of the deposited data

Results flagged for a closer look

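The effect of the knockdown on 27 proteasome genes differed between unstimulated and stimulated cells by the interaction test. Of these, 22 were higher and 5 lower, against 23.8% and 22.3% of all genes. The values are the log2 effect with TNF-α minus the log2 effect without it, and for each gene the effect with TNF-α lay between -0.20 and 0.07 and was not called. In the beta ring the difference was 0.74 for PSMB1, 0.73 for PSMB2, 1.199 for PSMB3, 1.08 for PSMB4, 1.21 for PSMB5, 1.11 for PSMB6 and 0.98 for PSMB7. In the alpha ring it was 0.82 for PSMA7 and -0.42 for PSMA2. In the ATPase ring it was 1.01 for PSMC3, 0.98 for PSMC4, 0.80 for PSMC5 and -0.96 for PSMC6, and in the rest of the base 0.92 for PSMD2, 0.91 for PSMD4 and -0.44 for PSMD1. In the lid it was 0.86 for PSMD3, 1.08 for PSMD8, 0.37 for PSMD11, 0.78 for PSMD13 and -0.39 for PSMD12. Among the activators and the inhibitor it was 0.63 for PSME1, 0.85 for PSME2, 0.57 for PSME3, 0.62 for PSMF1 and -1.30 for PSME4, and among the chaperones 1.22 for PSMG3. Positive values belong to genes that were lower and negative values to genes that were higher in unstimulated KD cells. With the correction for GC content and length PSME4 alone of the 5 genes with negative values was called, at -0.69, and PSMC6 at -0.27, PSMD1 at -0.23, PSMA2 at 0.07 and PSMD12 at 0.24 were not. Both unstimulated KD libraries, on which these differences rest, have the composition given with the libraries, and its part in the differences cannot be told apart from that of the knockdown.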

How the results depend on the processing

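The count of proteasome genes called between KD and control cells with TNF-α was 0 under every alternative run, and the beta ring was lower in unstimulated KD cells in 7 or 8 of 8 genes under the scalings and the correction for GC content and length. Other counts moved. For unstimulated KD against control cells the count of higher genes (7) was 12 scaled to total reads, 3 with upper-quartile factors, 4 with only the 4 libraries compared and 2 with the correction for GC content and length. Over all genes the higher ones (4932) were 6515, 3805, 4323 and 3969 in the same order. For TNF-α in control cells (0) 1 gene was higher with voom and with the correction, against 3.72% of all genes higher with the correction. For TNF-α in KD cells the count of lower genes (7) was 16 scaled to total reads and 3 with upper-quartile factors or the correction. Over all genes the lower ones (5187) were 7240, 4075 and 4597 in the same order. For the interaction the count of lower genes (5) was 8 scaled to total reads, 2 with upper-quartile factors, 2 with no filter and 1 with the correction. Over all genes the lower ones (3679) were 4966, 2781, 3144 and 2587 in the same order, with 32613 genes tested under no filter.

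Leaving out 1 library gave median log2 fold changes of the proteasome genes of -0.71 to -0.43 for unstimulated KD against control cells. With TNF-α the median ran from -0.0204 to -0.0105. For TNF-α it was -0.11 to 0.13 in control cells and 0.56 to 0.63 in KD cells, and for the interaction 0.41 to 0.60. Counts of called genes from these fits are not given here, since the lone library of a group is then assumed to vary like the other groups.

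With the replicate block the counts of higher and lower genes were 7 and 26 for unstimulated KD against control cells, 0 and 0 with TNF-α, 0 and 0 for TNF-α in control cells, 25 and 7 for TNF-α in KD cells, and 23 and 5 for the interaction. Over all 16528 genes tested they were 4859 and 4902, 6 and 4, 416 and 150, 5092 and 5117, and 3868 and 3577 in the same order. The correlation of the replicate differences was 0.35 between the unstimulated control and KD groups and -0.19 to 0.02 between the other pairs of groups. No label ties the numbers, so they were not taken as pairs.

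These genes turned sign. For unstimulated KD against control cells the correction for GC content and length gave -0.0524 for PSMA2, -0.19 for PSMA3, -0.42 for PSMA4, -0.25 for PSMD12, -0.48 for PSMD14, -0.69 for PSMD6 and 0.29 for PSMG2, and scaling to total reads gave 0.22 for PSMC2, 0.0170 for PSMD7 and 0.27 for PSMG2. For TNF-α in KD cells the correction gave 0.0135 for PSMA2, 0.12 for PSMA3, 0.43 for PSMC2, 0.20 for PSMD12 and 0.49 for PSMD14, and scaling to total reads gave -0.29 for PSMC1, -0.34 for PSMD6 and -0.0895 for PSMD7. For the interaction the correction gave 0.0677 for PSMA2, 0.24 for PSMD12 and 0.72 for PSMD6. The cause was not tested. PSMA4, PSMC1, PSMC2, PSMD6 and PSMG2 were not called as reported. Only the 4 libraries compared cannot be used for the interaction, which needs all 8.

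Groups of 2 libraries limit every test, and the low reads of genes with shared exons limit PSMA2 and PSMA6.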
